A study of Mus musculus with 16 samples.

Results

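The genes described are the 4 long members of the mouse IgLON family, Lsamp, Opcml, Ntm and Negr1, out of 21887 protein-coding genes on chromosomes 1 to 19, X and Y. They were taken by name, and a break site was counted for a gene when an END-seq peak overlapped the gene span extended by 1 kb on each side. END-seq reads out, across the genome, where DNA is broken in both strands. The libraries came from cardiac myocytes, isolated by Langendorff perfusion of the heart, of Myh6-Cre:LmnaF/F mice (cKO, 3 libraries) and of wild-type mice (WT, 3 libraries). Whether each library came from a mouse of its own is not said, so the spread between libraries may be technical. In cKO mice both Lmna alleles are flanked by loxP sites, and Cre under the promoter of the myosin heavy chain gene Myh6 deletes this gene of lamin A and C in heart muscle cells. The labels give neither age nor sex. The labels name no Cre-only group with unaltered Lmna, and effects of Cre and of the deletion cannot be told apart. Values are listed by library number, 1 to 3, within each genotype, and a mean is followed by ± its SD over 3 libraries. The series, whose title names transcriptional stress as a source of breaks, also holds lamin A and IgG libraries of WT myocytes, which were not used here.

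IgLON proteins are cell-surface adhesion molecules of the immunoglobulin superfamily, held in the membrane by a glycosylphosphatidylinositol anchor. They bind themselves and one another in pairs on facing or the same membranes, and are known for their part in neurite outgrowth and synapse formation. They are mainly studied in the nervous system, and these data measure DNA breaks, not their expression. Lsamp encodes the limbic system-associated membrane protein, Opcml the opioid-binding cell adhesion molecule, Ntm neurotrimin, and Negr1 neuronal growth regulator 1, whose human locus is associated with body mass index.

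The peak lists differed widely in length, with 13630 to 29743 peaks in the cKO lists and 1345 to 15458 in the WT lists. WT 1 had the shortest list, and read depth is unknown. A list holds only sites that passed the authors' caller, and breaks below its threshold are not seen. Peak names start with WT-4 both in the list labelled cKO 1 and in that of WT 3. The pair shared 57 peaks with identical start and end, 0.685% of the shorter list, within the range of 0% to 1.36% over the 15 pairs of lists. The genotype of the library labelled cKO 1, the longest list, is therefore in doubt. Its label was followed, and values without it are given for the comparisons of peak number and of share of the list. A peak list measures neither the deletion nor the cell type: Lmna itself had 1 peak in cKO 1, and Myh6 had 1 each in cKO 1 and cKO 3.

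Lsamp was the only member with a peak at an annotated start. This peak lay on chromosome 16 from 39984159 to 39984415 (mm10) and was present in every list but WT 1. Its fold over background, which is the authors' ratio of a peak to the background of its own library, was 30.8, 21.9 and 23.9 in the cKO lists, against 23.3 in WT 2 and 10 in WT 3. The sequence before the annotated start is shown because it is the only IgLON promoter under a peak. It is credited to RefSeq (GRCm38.p6, the assembly of mm10) and lies on the plus strand at chr16:39984114-39984363. Capitals mark the 122 bases covered by all 5 peaks, which run on past the start at 39984364. The Lsamp gene span itself begins upstream of this start, at 39984254, so most of the capitals lie inside the span.
Lsamp promoter: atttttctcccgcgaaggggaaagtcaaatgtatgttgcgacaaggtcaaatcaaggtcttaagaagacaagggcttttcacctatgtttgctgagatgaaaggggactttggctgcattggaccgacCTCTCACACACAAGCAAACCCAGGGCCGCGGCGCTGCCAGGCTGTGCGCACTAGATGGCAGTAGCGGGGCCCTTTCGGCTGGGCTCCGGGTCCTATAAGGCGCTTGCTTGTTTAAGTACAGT
Lsamp at the peak's right edge: GGGGAGTAAGGGAGAGGAGGGTAGGAAAGA
The 30 bases of the lower line, at chr16:39984384-39984413, are all in capitals because all 5 peaks cover them. They end 2 bases before 39984415, the base at which all 5 peaks ended, 51 bases past the annotated start. Of these bases 28 were A or G. Among 21263 promoter windows of 300 bases from 17492 protein-coding genes, 0.122% held at least as many A or G in their last 30 bases on the gene's strand, a feature chosen after the letters were seen. A peak in at least 5 lists was found in 48 of these windows (0.226%). The window held 53% G or C, against a median of 56.3% over all windows. No list had a peak in the second annotated window of Lsamp, in either window of Ntm or in those of Opcml and Negr1. The 2 Ntm windows have their starts at 29413452 and 29412685, inside the gene span. No window covers the 5′ end of the Ntm span at 29963269, from which Ntm positions are measured below. The region nearest to them lay 7.12 kb away for the second Lsamp window, 2.27 kb for Opcml, 5.57 kb for Negr1, and 40.7 and 41.4 kb for Ntm.

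Each member had break sites along its length, in both genotypes. In Lsamp (chromosome 16, 39984254 to 42181679, 2197 kb, plus strand), 21, 9 and 17 peaks were listed for the cKO libraries, against 0, 12 and 6 for the WT libraries. Opcml (chromosome 9, 27790716 to 28925410, 1135 kb, plus strand) had 12, 7 and 13 peaks in the cKO lists and 1, 8 and 4 in the WT lists. In both genes the cKO list with fewest peaks, cKO 2, was below WT 2, so the groups overlapped. Ntm, which lies next to Opcml on the same chromosome (28994749 to 29963269, 969 kb, minus strand), had 9, 3 and 11 peaks in cKO and 1, 5 and 3 in WT, again with overlap. Negr1 (chromosome 3, 156561790 to 157316464, 755 kb, plus strand) had 14, 6 and 6 peaks in cKO and 0, 5 and 2 in WT. It was the only member in which every cKO list had more peaks than every WT list, by a margin of a single peak between cKO 2 or cKO 3 and WT 2. Among the 8383 protein-coding genes with a peak in any list (38.3% of all), 6.36% had that pattern, and 0.0239% had the reverse. Among the 533 autosomal genes of at least 300 kb it was 20.5%, and among the 40 autosomal genes nearest to Negr1 in length 22.5%. The plot of peaks by library shows these values.

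**Figure D1:**
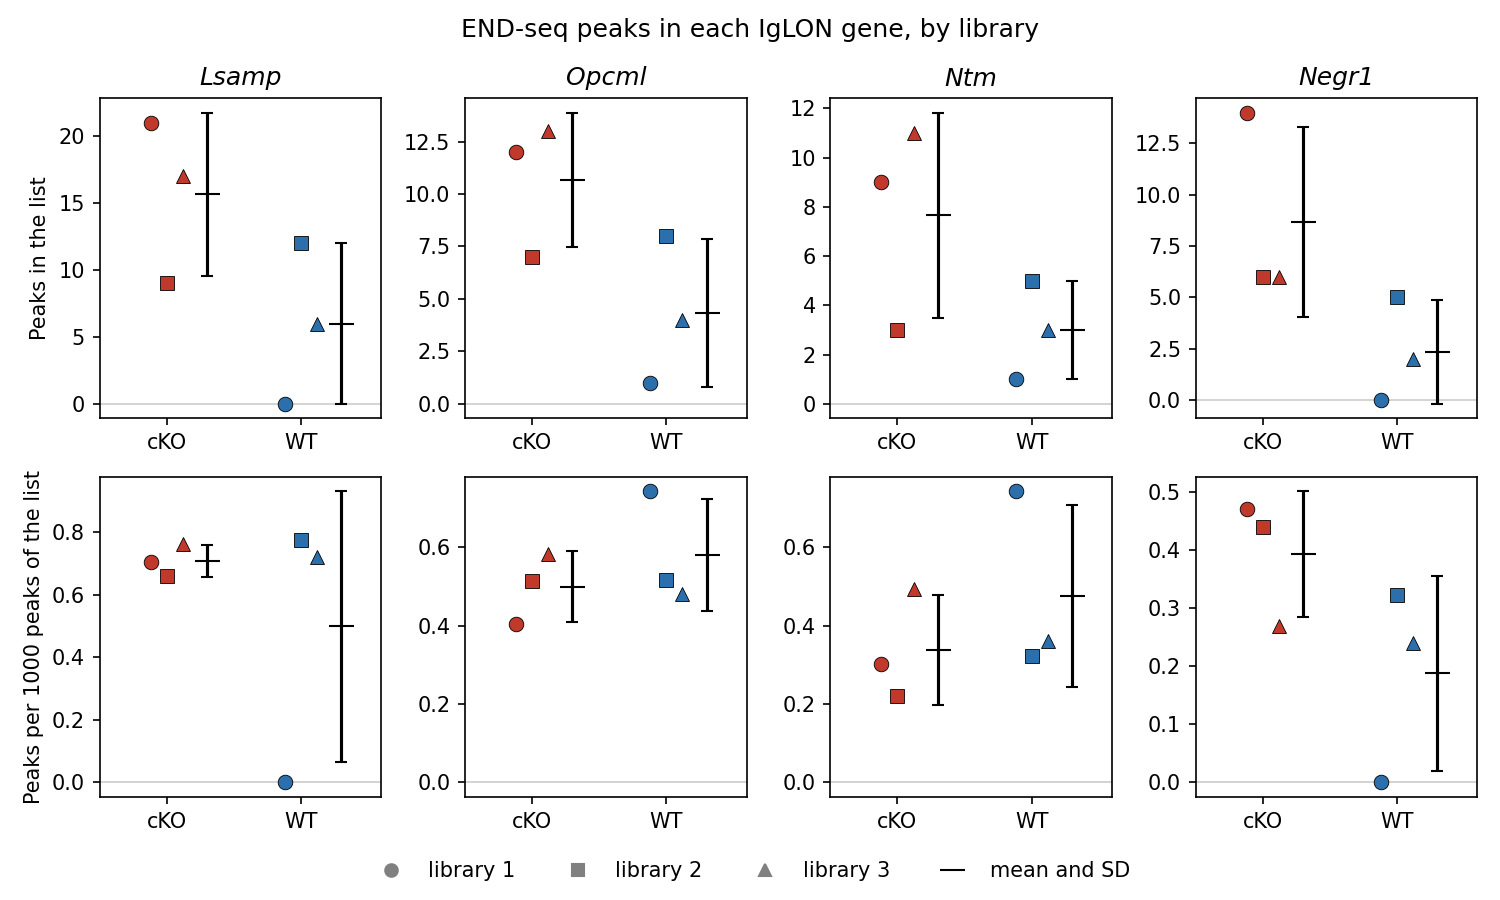
END-seq peaks in each IgLON gene by library, cKO left and WT right: upper row, number of peaks in the list; lower row, peaks per 1000 peaks of the same list; symbols are libraries and black bars the mean and SD of 3. In the upper row only Negr1 has groups that do not overlap (14, 6 and 6 against 0, 5 and 2), and in the lower row all 4 genes overlap.

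On average cKO lists had more peaks in every member, but no difference passed the exact permutation test, whose smallest p with 3 libraries against 3 is 0.1. Lsamp averaged 15.7 ± 6.11 peaks per cKO list, against 6 ± 6 per WT list. On the scale of log2(peaks + 0.5) it differed by 2.15 (two-sided exact permutation over 20 assignments, p = 0.2). For Opcml the means were 10.7 ± 3.21 peaks for cKO, against 4.33 ± 3.51 for WT, or 1.49 apart on the log2 scale (exact permutation p = 0.2). For Ntm they were 7.67 ± 4.16 for cKO, against 3 ± 2 for WT, or 1.24 apart on the log2 scale (exact permutation p = 0.3). Negr1 averaged 8.67 ± 4.62 peaks per cKO list, against 2.33 ± 2.52 per WT list, or 2.16 apart on the log2 scale (exact permutation p = 0.1). The same exact test over the 8383 genes gave an adjusted p (Benjamini-Hochberg) of 1 for each member, and 0 genes passed, also at an unadjusted p under 0.05, which this design cannot reach. Without WT 1 the log2 differences were 0.76 for Lsamp, 0.81 for Opcml, 0.73 for Ntm and 1.20 for Negr1, and without cKO 1 they were 1.91, 1.38, 1.05 and 1.77.

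Counted per 1000 peaks of the list, the groups overlapped in every member. The 4 genes together held 1.88, 1.83 and 2.11 of every 1000 peaks in the cKO lists, against 1.49, 1.94 and 1.80 in the WT lists. Lsamp held 0.706, 0.660 and 0.762 per 1000 in cKO and 0, 0.776 and 0.721 in WT. Apart from WT 1, the Lsamp values of all lists lay within 0.660 and 0.776. The Lsamp difference, cKO minus WT, was 0.210 per 1000 with WT 1 (exact permutation p = 0.9) and -0.0394 without it. The differences were -0.0808 for Opcml, -0.137 for Ntm and 0.205 for Negr1 (exact permutation p = 0.5, 0.5 and 0.2). Without WT 1 they were 0.000698 for Opcml, -0.00349 for Ntm and 0.111 for Negr1. Without cKO 1 they were 0.212 for Lsamp, -0.0326 for Opcml, -0.119 for Ntm and 0.167 for Negr1. For Opcml the cKO lists had 0.403, 0.514 and 0.583 per 1000, against 0.743, 0.518 and 0.481 in the WT lists. For Ntm they had 0.303, 0.220 and 0.493, against 0.743, 0.323 and 0.361. In both genes WT 1, with a single peak in a short list, was highest. For Negr1 the cKO lists had 0.471, 0.440 and 0.269 per 1000, and the WT lists 0, 0.323 and 0.240. Negr1 in cKO 3 was thus below WT 2, and the groups overlapped. On this scale 6.48% of the 8383 genes had every cKO value above every WT value, 0.537% had the reverse, and none of the 4 members was among either.

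Measured over all 6 lists against genes of like length, Opcml and Ntm stood in the upper part of the range, Negr1 in the middle and Lsamp in the lower part. The place of Negr1 below Opcml and Ntm rested on WT 1. Without that list Negr1 had the highest relative density of the 4 members, above Opcml and Ntm. For each member the 40 autosomal protein-coding genes nearest in length were taken, and its peaks per Mb were divided by their mean in the same list. Opcml had 1.19 ± 0.260 times that mean (SD over 6 lists), rank 9 of 41, among genes that ran from 0.521 to 2.44. Ntm had 1.29 ± 0.734 times the mean, also rank 9 of 41, among genes from 0.408 to 2.03. Without WT 1, whose single Ntm peak weighs heavily in a short list, Ntm had 1.01 and rank 19, and Opcml 1.10 and rank 12. Negr1 had 0.974 ± 0.569, rank 18, and 1.17 and rank 10 without WT 1. Lsamp had 0.698 ± 0.349, rank 33 of 41, among genes from 0.527 to 2.29, and 0.838 and rank 28 without WT 1. Few genes are as long as Lsamp, so its 40 ranged from 1098 to 2271 kb. The 4 members all lay inside the range of their matched genes, as the plot of density against length shows. Of all protein-coding genes, 8.2% had a peak in at least 5 lists, whereas 73.4% of those of at least 300 kb did, and all 4 members are among them. Opcml and Ntm had peaks in all 6 lists. Of all protein-coding genes 1.25% did so, and of the genes matched to Opcml and to Ntm 42.5% and 27.5%.

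**Figure D2:**
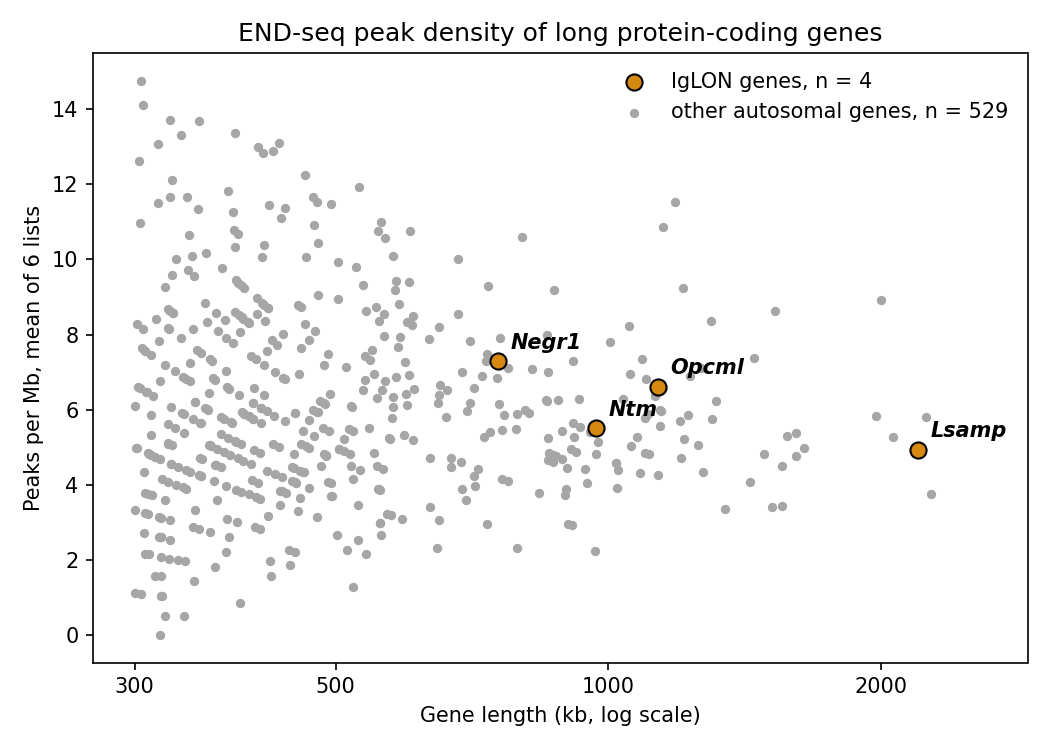
Mean of 6 lists of END-seq peaks per Mb (linear axis) against gene length in kb (log axis) for the 533 autosomal protein-coding genes of at least 300 kb, with the 4 IgLON genes in orange. The IgLON genes lie within the cloud of other long genes, Lsamp at the long end.

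The 175 peaks of the 4 genes merged into 82 regions, 33 in Lsamp, 18 in Opcml, 15 in Ntm and 16 in Negr1. With the span cut into 4 equal parts from the 5′ end, Lsamp had 9, 8, 7 and 9 regions, an even spread, and Opcml 3, 6, 3 and 6. Ntm had 6, 5, 2 and 2, with most regions nearer the 5′ end of its span, and Negr1 had 7, 2, 3 and 4. The longest stretch without a peak in any list was 254 kb in Lsamp, 232 kb in Opcml, 200 kb in Ntm and 125 kb in Negr1. In Opcml it began 3.04 kb from the 5′ end of the gene, after a site seen in cKO 3 and WT 2 alone. All regions but 1 touched the gene span. The exception lay just past the 3′ end of Negr1 (157316533 to 157316708), and was found in cKO 1 with a fold of 10.9. The gene table used gives no exons, so sites are placed by span alone. Overlapping noncoding genes were touched by 5 of the regions, 2 in Lsamp (Gm52230 and Gm46551), 2 in Ntm (Gm15521 and Gm15520) and 1 in Opcml (Gm39313). END-seq peaks have no strand here, so breaks in those genes and in the members cannot be told apart.

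**Figure D3:**
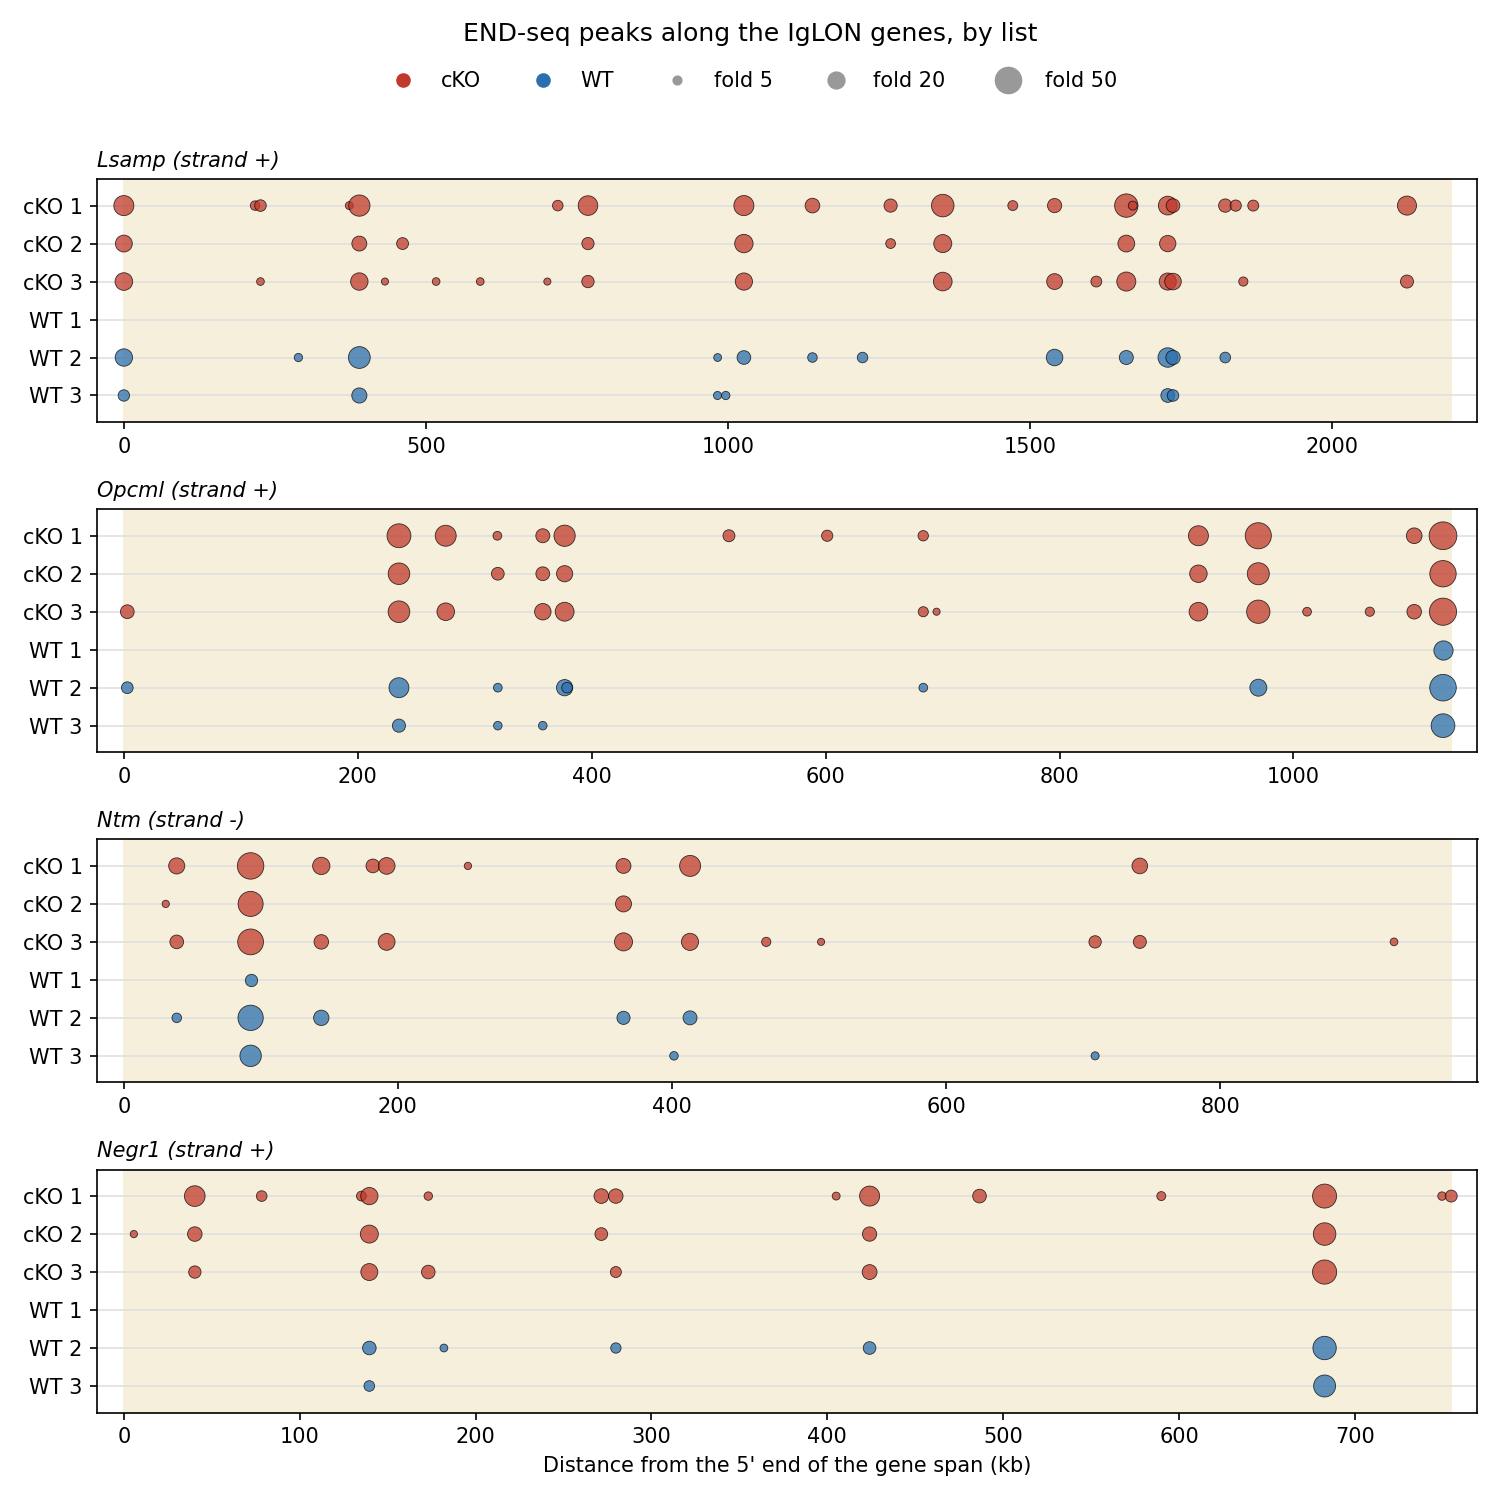
END-seq peaks along each IgLON gene in the 6 lists, cKO above WT: the x axis is the distance in kb from the 5′ end of the gene span (shaded), and the area of a point is proportional to the authors' fold over background. Columns of points mark sites found in several lists, such as those at 1128 kb in Opcml and 92.5 kb in Ntm, which hold a point in all 6 rows.

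Of the 82 regions, 42 were seen in a single list (51.2%, against 57.5% of all 46216 regions of the series), 13 in 2, 11 in 3, 8 in 4, 6 in 5 and 2 in all 6. Over the series, 1.07% of the regions were in all 6 lists and 8.35% in at least 5. The regions found in cKO and in no WT list numbered 47 (57.3%, against 57.5% of all regions), those in both genotypes 27 (32.9%, against 28.4%) and those in WT and no cKO list 8 (9.76%, against 14.1%). Without cKO 1, 63 of the 82 regions were left, and the rest, seen in cKO 1 alone, are among the 47. This split and the shares that follow were not recomputed without cKO 1, whose genotype is in doubt. Of the WT 2 regions in these genes 25 of 30 (83.3%) were also found in cKO, as were 80.8% of all WT 2 regions. For WT 3 the share was 12 of 15 (80%), against 60.4% of all its regions, and for WT 1 it was 2 of 2, against 61.3%.

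The strongest IgLON site lay near the 3′ end of Opcml, 1128 kb from the 5′ end (chromosome 9, 28918458 to 28918758). Its fold was 59.2, 53.5 and 56.8 in the cKO lists, against 28.6, 54.2 and 43.2 in the WT lists. In each list it ranked above at least 97.5% of the peaks by fold. The other site found in all 6 lists lay 92.5 kb from the 5′ end of the Ntm span (chromosome 9, 29870615 to 29870880), upstream of both annotated Ntm starts. Here the fold was 53.9, 48.3 and 51.0 in the cKO lists, against 11.7, 49.3 and 35.2 in the WT lists. Its percentile within the list was 69.7 in WT 1 and from 94.6 to 99.1 in the other 5. Folds are relative to each library's own background and were not compared between genotypes.

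In Negr1 the leading site lay 683 kb from the 5′ end (chromosome 3, 157244465 to 157244739) and was found in every list but WT 1. Its folds of 44.3, 39.0 and 44.9 in cKO and 42.0 and 37.1 in WT 2 and WT 3 were all between the percentiles 93.4 and 95.9 of their lists. A further Negr1 site, 140 kb from the 5′ end (156701285 to 156701502), was in the same 5 lists at percentiles from 51.8 to 73.1. Lsamp had no site in all 6 lists, and 3 in all but WT 1. These were the site at its start, a site 390 kb from the 5′ end (40374136 to 40374345; folds 34.7, 17.2 and 23.4 in cKO, and 36.5 and 17.7 in WT 2 and WT 3) and a site 1728 kb from it (41712607 to 41712842; folds 27.1, 20.5 and 22.5 in cKO, and 29.1 and 14.5 in WT 2 and WT 3). Opcml had such a site 235 kb from its 5′ end (28025851 to 28026085), with folds of 43.8, 35.7 and 36.0 in cKO and 30.4 and 13.3 in WT 2 and WT 3. Without WT 1 the sites in all remaining lists thus numbered 8 rather than 2.

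Regions with a peak in all 3 cKO lists numbered 19 (23.2%, against 19.7% of all regions of the series). Of these, 15 also had a WT peak (18.3% of the IgLON regions, against 16.3% of all regions). The other 4 were found in no WT list, 4.88% of the IgLON regions against 3.48% of all regions, and the reverse pattern was found in 0 IgLON regions, against 0.0563% of all regions. These 4 were 2 sites in Lsamp, 769 kb (40752700 to 40752880) and 1356 kb (41340105 to 41340344) from the 5′ end, 1 in Opcml at 919 kb (28709417 to 28709583) and 1 in Negr1 at 40.4 kb (156602025 to 156602263). The first Lsamp site had folds of 29.6, 11.5 and 11.8, and the second 39.0, 25 and 26.8. The folds were 30.6, 23.4 and 26.8 at the Opcml site and 32.8, 16.2 and 11.7 at the Negr1 site. All 4 were highest in the library labelled cKO 1. Ntm had no such site. Dropping cKO 1 left the count at 4. Each of the 4 also had a peak in cKO 1, whose genotype is in doubt. Were that library WT, none of them would be absent from WT. It was 10 when WT 2 was dropped and 11 when cKO 2 was, since a dropped list loosens the condition.

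With the lists pooled, peaks at sites shared by more lists had a higher median fold percentile, each peak ranked within its own list. The 42 peaks of single-list regions had a median fold percentile of 16.7, from 1.64 to 46.5, so none was in the upper part of its list. The median was 51.1 for regions in 2 lists, 55.6 in 3, 67.2 in 4, 76.0 in 5 and 98.7 in 6. Over all peaks of the series the medians were 18.9, 40.2, 52.0, 67.0, 84.2 and 93.6 for 1 to 6 lists. Fold and recurrence come from the same peaks and the same lists, so this is a description. The plot of fold rank by recurrence sets IgLON peaks beside the whole series.

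**Figure D4:**
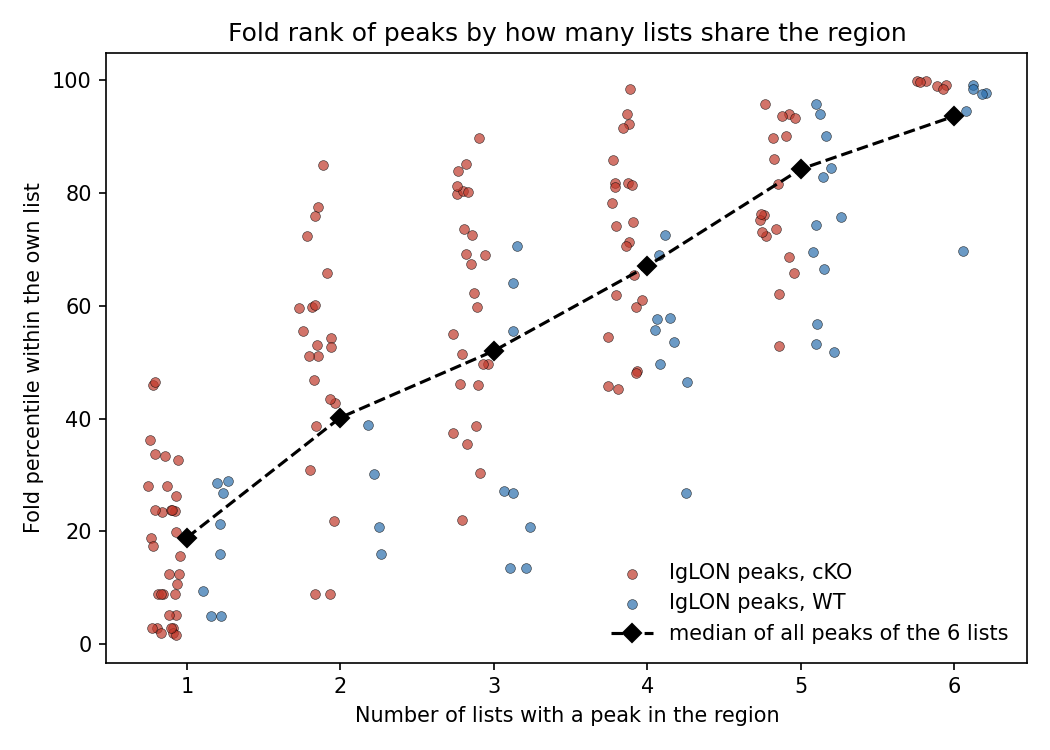
Fold percentile of each of the 175 IgLON peaks within its own list against the number of lists with a peak in the same region, cKO left and WT right in each column, with the median of all peaks of the series as diamonds. IgLON peaks of single-list regions reach at most a percentile of 46.5, and all but 1 of the peaks in regions found in 6 lists lie at 94.6 or above.

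Recurrent IgLON peaks shared an edge to the base. Of the 27 regions found in at least 3 lists, 24 (88.9%) had 1 edge at the identical coordinate in every list, the left edge in 9 and the right in 15 (coordinate order), with none identical at both edges. Over the series this held for 79.2% of 12506 such regions with 1 peak per list. The opposite edge differed between lists by a median of 51.5 bp in the IgLON regions, from 3 to 117 bp. The summit lay close to the shared edge. In these 24 regions it was a median of 20 bp from it, and within 50 bp in 93 of 96 peaks (96.9%), where the median peak width was 178 bp. This distance was not measured for the other regions of the series, so it is not shown to be particular to IgLON sites. At the Opcml site in all 6 lists every peak ended at 28918758, with summits 16 to 22 bp before it. At the Ntm site in all 6 lists every peak began at 29870615, with summits 17 to 47 bp after it. Both genotypes shared these edges. Of the sites in at least 5 lists, the Lsamp site at 390 kb was the exception, with left edges within 10 bp and right edges within 42 bp of one another.

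**Figure D5:**
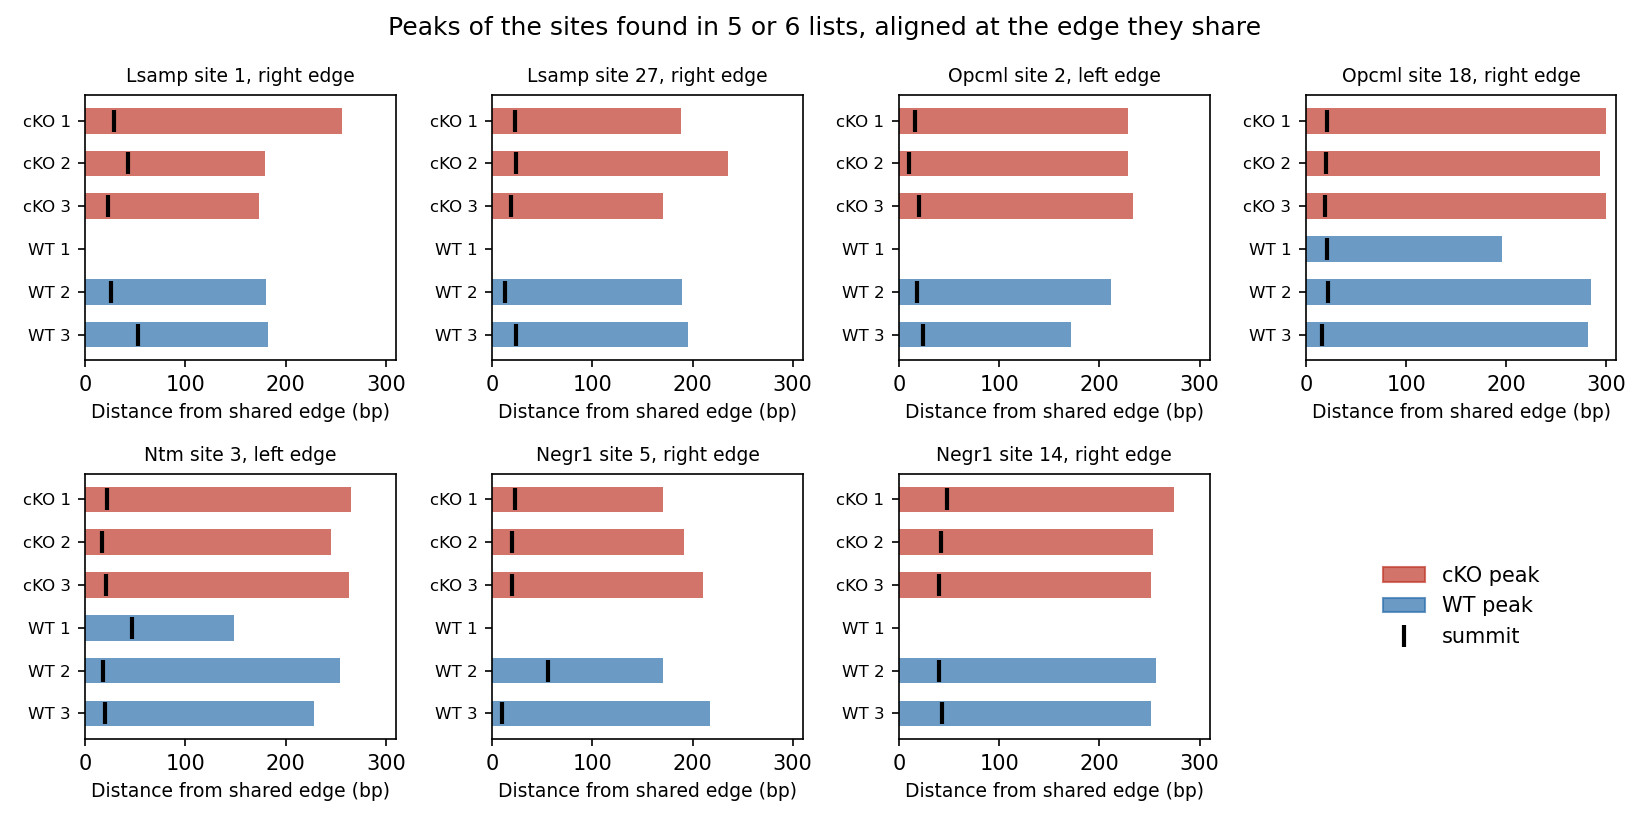
Peaks of the 7 IgLON sites that were found in 5 or 6 lists and shared an edge, drawn in bp from the shared edge (sites numbered from the 5′ end of each gene; left or right edge in coordinate order), cKO bars above WT bars and the summit as a tick. The bars differ in length, from 149 to 301 bp at the sites found in all 6 lists, while the ticks stay near the shared edge.

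The fifth family member, Iglon5, had no peak in any list. It is far shorter than the others (chromosome 7, 43472901 to 43490211, 17.3 kb), and 38.3% of protein-coding genes had a peak in any list. Among 24 other adhesion genes of the immunoglobulin superfamily, 3 had a peak in all 6 lists, 8 in 5, and 13 in 1 to 4. Of all protein-coding genes, 1.25% had a peak in all 6 lists and 8.2% in at least 5. For autosomal genes of at least 300 kb these shares were 21.8% and 73.4%. Of the 24 genes 8 are that long, and 4 of these 8 had a peak in 5 or 6 lists. The 3 genes with a peak in all 6 were Mdga2, whose protein is GPI-anchored like the IgLONs, with 10, 3 and 6 peaks in cKO and 1, 3 and 2 in WT, the neural adhesion gene Chl1 (3, 2 and 2 in cKO, and 2 in each WT list) and Kirrel, of a protein of the kidney filter, with 1 peak in each list. Dscam, a neuronal self-recognition gene that was hit in 5 lists, had 11, 5 and 7 peaks in cKO and 0, 6 and 4 in WT. Every cKO list exceeded every WT list in 4 of the 24, Cadm3, Jam2, Lrfn5 and Nfasc, named after their values were seen. That pattern was found in 6.36% of the 8383 genes with a peak and in 20.5% of autosomal genes of at least 300 kb. In Cadm3, Jam2 and Lrfn5 it rested on 1 or 2 peaks per cKO list. Every WT list exceeded every cKO list in 0 of the 24, against 0.0239% of the 8383 genes. The 24 genes had a median of 8.92 peaks per Mb as the mean of 6 lists, the 4 IgLON members 6.06 and all protein-coding genes 0. The 533 autosomal genes of at least 300 kb, which include the members, had a median of 5.78, near that of the members. The 24 span 8.07 to 966 kb, and in a short gene a single peak gives a high density.

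The genes whose profile of peaks per Mb over the 6 lists came closest to a member, by Euclidean distance in log2(peaks per Mb + 0.5) among autosomal genes of at least 300 kb, are given with their distance. For Lsamp they were Robo1 (distance 0.323), an axon guidance receptor gene with 8, 4 and 8 peaks in cKO and 0, 5 and 3 in WT, and Tenm4 (0.339). For Opcml they were Wwox (0.495), with 13, 6 and 10 peaks in cKO and 1, 7 and 3 in WT, and Rbms3 (0.513). For Ntm they were the receptor tyrosine phosphatase gene Ptprt (0.581) and Nrxn3 (0.648). For Negr1 they were the delta-catenin gene Ctnnd2 (0.251), with 14, 7 and 7 peaks in cKO and 0, 6 and 2 in WT, and Dync1i1 (0.474). List length enters every such profile.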

How the data were processed

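END-seq peaks were called by the authors per library, and the 6 deposited lists were used, 3 of each genotype, grouped by title and genotype label. Per the file headers, each peak has a fold over background, a linear ratio, with −log10 p and q values and the caller's score. All deposited peaks had a q of at most 0.01. The submitters' processing notes name FastQC, SEACR, DiffBind and mm10, without roles. The aligner was not given in the sources used here. Peaks on chromosomes 1 to 19, X and Y were kept. Positions are 1-based.

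Peaks were counted per gene (RefSeq, GRCm38.p6; at least 1 bp of overlap with the span plus 1000 bp each side), and peaks of the 6 lists overlapping by 1 bp were merged into regions. All 4 members and all 24 listed genes were matched by symbol. Groups were compared by exact permutation on log2(peaks + 0.5) and on peaks per 1000 peaks of the list, over all genes. The genes named beside the members were the 4 of the list hit in most libraries, ties by number of peaks, and the 2 nearest profiles per member; 4 more are marked as named after their values were seen. Members and lists were chosen with earlier results of these data known. Alternatives were a stricter q (0.00001), lists cut to equal length, other flanks, merging within 1000 bp, 20 matched genes, all annotated genes, each library left out and the replicate number as a block. Lamin A intervals, on GRCm39, were not used. Counting, merging and testing were tested on simulated data. Libraries are the replicates. Python 3.11.15, numpy 2.4.6, pandas 2.3.3 and matplotlib 3.10.9 were used.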

Additional observations from a re-analysis of the deposited data

How the results depend on the processing

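Read depth is unknown. The exact test cannot reach 0.05 with 3 libraries a group, and no p here bears on stability. Of 169 alternative values, 147 kept their direction or size. With every list shortened to 1345 peaks, 5 IgLON regions were left, 2 of them in all 6 lists and 0 in every cKO list and no WT list. The differences in number and share were then 0 for Lsamp, Ntm and Negr1, and the Opcml share difference was 0.743 per 1000. Density relative to matched genes was 0 for Lsamp, 3.20 for Ntm, 2.50 for Opcml and 2.16 for Negr1. In the 5 lists other than WT 1, each shortened to 8320 peaks (chosen after seeing the data), there were 31 regions, 8 in all lists and 2 in every cKO list and no WT list, and the log2 difference of Ntm turned to -0.38. Those of Lsamp, Opcml and Negr1 were 0.15, 0.60 and 0.57. Leaving out each library gave share differences from -0.0394 to 0.349 for Lsamp and from -0.131 to 0.000698 for Opcml, 2 to 8 regions in all lists and 4 to 11 in every cKO list and no WT list. The cause was not tested.

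The replicate number as a block left the log2 differences at 2.15, 1.49, 1.24 and 2.16 for Lsamp, Opcml, Ntm and Negr1. The exact permutation p within blocks was 0.5, 0.5, 0.5 and 0.25, the last the smallest possible. This test therefore could not make a call. The deviations of same-numbered libraries had correlations of -0.0679, -0.146 and -0.0579 over 929 genes. Those of differently numbered libraries ran from -0.0687 to 0.172. With 3 libraries a group these values cannot decide whether the numbers pair the libraries.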

Other observations

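Break regions also lay outside the limits of the members. In the 69.3 kb between Opcml and Ntm, a region 19.4 kb to the left of the Ntm span, past its 3′ end, was found in 5 lists. Its highest fold was 23.9. The region nearest to the right of Ntm lay 73.2 kb away and was found in 4 lists, with a highest fold of 51.5. A region 4.74 kb to the right of Lsamp was found in 3 lists, with a highest fold of 19.5. Around Negr1 the nearest regions were 171 kb to the left and 15.8 kb to the right, each found in a single list.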
